A study of Mus musculus with 6 samples.

Results

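Immune checkpoints are ligand and receptor pairs that restrain immune cells. Ligands such as PD-L1 on a tumour cell dampen the T cells that meet it, and CD47 tells macrophages not to engulf the cell that carries it. Inhibitory receptors on myeloid cells, such as PIR-B and SIRPα, carry short tyrosine motifs (ITIMs) in their tails that recruit the phosphatases SHP-1 and SHP-2 and so damp activating signals. Myeloid leukemia blasts can show both sides of these pairs, since they are themselves myeloid cells.

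The genes described here are 10 checkpoint and inhibitory receptor genes: the ligands Cd274, Lgals9, Pvr, Cd47 and Vsir, and the receptors Pirb, Lilrb4a, Sirpa, Havcr2 and Cd200r1. These genes and the related lists below were chosen with earlier results of these data known. Shares called and medians among them are therefore descriptive and not independent support. The genes were matched by symbol through the GENCODE M21 annotation, and 9 of the 10 had a row among the 35932 genes of the count table. The identifier that this annotation gives to Lilrb4a was not among the rows, so Lilrb4a was not analysed here. All 9 passed the filter on low counts. RNA was sequenced from mouse bone marrow blasts with the genotype MLL-AF9+, a fusion of Kmt2a with Mllt3 that drives acute myeloid leukemia. Chemotherapy-sensitive blasts (3 libraries) were labelled as treated with vehicule, and chemotherapy-resistant blasts (3 libraries) as treated with Cytarabin+Doxorubicin, a nucleoside analog with an anthracycline. All 6 libraries therefore carry the fusion, and resistance and drug exposure cannot be told apart. The strain, age, dose, time of harvest, and whether a library came from its own animal are not in the labels, so the p-values reflect only how much these libraries vary, and that variation may be technical.

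Values are CPM (each gene's share of a library's reads, scaled so that libraries of different depth can be compared) after TMM scaling. A gene was called when its p-value from edgeR's quasi-likelihood test, adjusted over 13414 tested genes by the Benjamini-Hochberg method, was under 0.05. Of all tested genes 39.2% were called, 18.5% higher and 20.8% lower in resistant blasts, and the groups of libraries did not overlap in 52.4%. Of the 9 genes 1 was higher (Pvr), 4 were lower (Vsir, Pirb, Sirpa and Lgals9) and 4 did not pass (Cd274, Cd47, Havcr2 and Cd200r1). That is 55.6% called against 39.2% of all genes, and with 9 genes nothing is read from the excess. Their median log2 fold change was -0.39, against -0.01 over all tested genes. In bulk RNA such as this, fewer cells of a type and less RNA per cell cannot be told apart.

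**Figure D1:**
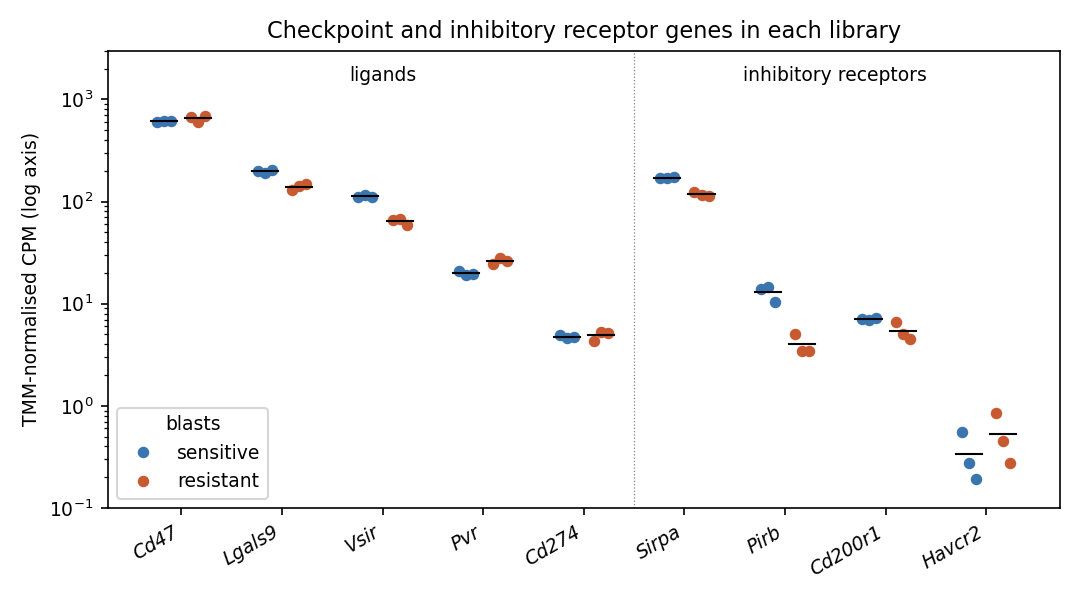
TMM-normalised CPM of the 9 measured genes on a log axis, with 1 point per library, sensitive blasts in blue and resistant blasts in orange, and a black bar at the mean of 3 libraries. Vsir, Lgals9, Sirpa and Pirb are lower in all 3 resistant libraries, Pvr is higher in all 3, and the points of Cd47, Cd274 and Havcr2 overlap.

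The genes differed widely in level. Per kilobase of exon sequence, Cd47 (97.2 CPM per kb) and Lgals9 (92.5 CPM per kb) were the most abundant of the 9 in sensitive blasts, at percentiles 96.1 and 95.9 of the tested genes. Sirpa (34.9 CPM per kb) and Vsir (22.4 CPM per kb) followed. Pvr (3.24 CPM per kb), Pirb (2.91), Cd200r1 (2.12), Cd274 (1.31) and Havcr2 (0.125) were far lower. In sensitive libraries Pvr (3.15 to 3.42 CPM per kb) and Pirb (2.32 to 3.28 CPM per kb) overlapped. In resistant blasts Pirb, at 0.893 CPM per kb, came after Cd200r1 (1.61) and Cd274 (1.36), whose own ranges of 1.34 to 1.98 and 1.19 to 1.46 CPM per kb overlapped. Several of these neighbours rest on the gene length used. With the longest transcript as the length, Lgals9 (125 CPM per kb) stood above Cd47 (116 CPM per kb) in sensitive blasts. Pvr (6.64 to 7.2 CPM per kb) then lay above Pirb (2.72 to 3.84 CPM per kb) without overlap in sensitive libraries. In resistant libraries Cd200r1 (1.62 to 2.39 CPM per kb) then lay above Cd274 without overlap, and Pirb (0.904 to 1.32 CPM per kb) overlapped with Cd274 (1.19 to 1.46 CPM per kb).

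Vsir encodes VISTA, a checkpoint protein that acts as ligand and as receptor and is typical of myeloid cells. It stood at 111, 115 and 111 CPM in the sensitive against 66.1, 67.9 and 59.5 CPM in the resistant libraries. Every resistant library was below every sensitive one, and the spread within each group was a few CPM. The mean fell 1.74-fold (log2 fold change -0.80 ± 0.06 SE, n = 3 per group, edgeR adjusted p = 6.23e-06). Only 7.04% of tested genes had a log2 fold change at or below that of Vsir. Selplg, which encodes PSGL-1, a reported binding partner of VISTA, was also lower, at 165 ± 6.67 CPM (SD, n = 3) in sensitive and 128 ± 12.4 CPM (SD, n = 3) in resistant blasts (log2 fold change -0.36).

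Lgals9 encodes galectin-9, a secreted sugar-binding protein and a ligand of TIM-3. Its level was 199, 191 and 204 CPM in sensitive libraries and 131, 143 and 148 CPM in resistant ones. The groups did not overlap, and the mean fell 1.41-fold (log2 fold change -0.49 ± 0.06 SE, edgeR adjusted p = 0.000137). Havcr2, the gene of its receptor TIM-3, lay at the edge of detection, with read counts of 16, 7 and 6 in the sensitive libraries against 27, 10 and 7 in the resistant ones. Its groups overlapped, and replicate 1 was the highest library in both groups. The interval of its fold change ran from 0.726-fold to 3.48-fold (95%), so the sign of any change was not settled at this depth. Ceacam1, a further reported TIM-3 ligand that is itself an ITIM receptor, fell from 109 ± 8.99 to 64.6 ± 8.33 CPM (SD, n = 3 per group, log2 fold change -0.76, edgeR adjusted p = 0.000149).

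The 250 bases before the start of Lgals9 are shown because the transcription factor genes Irf1 and Irf8, described further on, were lower in the same libraries, and the relation was not tested. The sequence is RefSeq's, build GRCm38.p6, chr11:78984925-78985174, minus strand, 5′ to 3′. Capitals mark matches to an ETS-IRF composite motif (GGAANNGAAA, forward) and an IRF pair (GAAANNGAAA, on the opposite strand).
Lgals9: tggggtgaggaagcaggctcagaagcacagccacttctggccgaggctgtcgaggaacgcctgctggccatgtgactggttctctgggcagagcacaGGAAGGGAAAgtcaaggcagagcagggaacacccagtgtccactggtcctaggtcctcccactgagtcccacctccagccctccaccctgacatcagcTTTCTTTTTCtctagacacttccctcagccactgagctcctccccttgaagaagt

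In all, 12 motifs were searched on both strands of the 250 bases before each start, all chosen after the values were seen. The share of 32851 such windows that held each motif was 2.3% for the ETS-IRF composite, 2.98% for the IRF pair, 21.3% for an IRF core site (AANNGAAA), 7.02% for a STAT site (TTCNNNGAA), 2.44% for a PU.1 motif (GAGGAAGT) and 7.69% for its shorter form (AGGAAGT). It was 9.56% for a C/EBP motif (TTGCNNAA), 1.41% for an NF-kB motif (GGGNNTTTCC), 9.02% for a GFI1 motif (AAATCNNNG), 0.895% for an E2F motif (TTTCCCGC), 6.02% for a MYC E-box (CACGTG) and 32.7% for a GC box (GGGCGG). The IRF core site lies within the IRF pair and the ETS-IRF composite, and the shorter PU.1 form within the longer, so these matches are not separate. Of the 6 members with a promoter in the table, Lgals9 alone held the IRF pair and the composite. Pirb and Havcr2 held both PU.1 forms, Cd274 held an IRF core site and a GC box, and Cd47 and Vsir held GC boxes, the most common of the 12. The STAT, C/EBP, NF-kB, GFI1, E2F and E-box letters were in none of the 6 windows. A match is a stretch of letters, and binding was not tested.

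Pvr encodes CD155, the ligand of the inhibitory receptors TIGIT and CD96 and of the activating receptor DNAM-1. It was the only one of the 9 genes called higher. Its level was 20.9, 19.3 and 19.3 CPM in the sensitive against 24.7, 27.9 and 26.3 CPM in the resistant libraries. The lowest resistant library stood above the highest sensitive one, and the mean rose 1.32-fold (log2 fold change 0.40 ± 0.08 SE, edgeR adjusted p = 0.00335). Nectin2, a further ligand gene of this receptor group, moved the other way, with 7.71 ± 1.01 CPM in the sensitive against 5 ± 0.832 CPM in the resistant blasts (SD, n = 3; log2 fold change -0.63 ± 0.16 SE, edgeR adjusted p = 0.00954). Nectin1 and Nectin3, also of this group, had 13 and 9 counts over the 6 libraries and were not tested. Of the receptors, Cd96 had 1 count over the 6 libraries and Cd226, which encodes DNAM-1, had 0. A count of 0 allows up to 3 counts, or 0.0945 to 0.137 CPM in a library, counting error only. Tigit stood at 0.929, 1.45 and 0.994 CPM in the sensitive against 1.77, 2.09 and 2.11 CPM in the resistant libraries. The log2 fold change was 0.82 ± 0.25 SE (edgeR adjusted p = 0.0228), a rise. That call was lost without sensitive replicate 1, sensitive replicate 3, resistant replicate 2 or resistant replicate 3 (adjusted p up to 0.0835). Over the 6 libraries Tigit had 251 counts, and the 11 T cell markers had from 1 count (Cd3g, Cd2) to 403 counts (Cd8a). Their part in the level of Tigit was not tested.

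Cd274 encodes PD-L1, the ligand of PD-1. It was low in every library, at 4.92, 4.59 and 4.75 CPM in the sensitive against 4.32, 5.28 and 5.19 CPM in the resistant blasts. The groups overlapped, with resistant replicate 1 the lowest of the 6 libraries and resistant replicates 2 and 3 the highest. The change of 0.05 ± 0.14 SE on the log2 scale did not pass (edgeR adjusted p = 0.817), and its 95% interval ran from 0.831-fold to 1.29-fold. The companion ligand gene Pdcd1lg2 had 16 counts over the 6 libraries, and Pdcd1, the gene of PD-1, had 1 count. Neither was tested. Cmtm6, whose product keeps PD-L1 at the cell surface, was at 123 ± 3.13 CPM in the sensitive against 126 ± 1.84 CPM in the resistant blasts (SD, n = 3; log2 fold change 0.04, edgeR adjusted p = 0.561).

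Regulators of PD-L1 and CD47 moved both ways. Ifngr1, a chain of the interferon-gamma receptor, fell from 421 ± 28 to 310 ± 19.7 CPM, and the interferon-induced transcription factor gene Irf1 from 60.5 ± 2.47 to 43.6 ± 4.16 CPM (SD, n = 3 per group; log2 fold changes -0.44 and -0.48). Irf8, a transcription factor of monocytes and dendritic cells, fell from 82.8 ± 11.7 to 38.5 ± 4.1 CPM. Spop, which encodes a ubiquitin ligase adaptor reported to act on PD-L1, fell by 0.49 on the log2 scale. In all, 4 of 24 tested regulators of PD-L1 and CD47 were higher, 11 lower and 9 did not pass, with a median log2 fold change of -0.12. That is 62.5% called, against 39.2% of all tested genes (18.5% higher and 20.8% lower). The 4 higher were Cops5, Qpctl, Gsk3b and Nfkb1 (log2 fold changes 0.30, 0.27, 0.19 and 0.16). Of these, Cops5, Gsk3b and Nfkb1 lie outside the rule for named genes. The count higher fell to 2 when only library totals set the scale and to 1 to 3 with a library left out. Among those that did not pass were Jak1 (log2 fold change 0.10) and Jak2 (0.02), kinases of the interferon-gamma receptor, named after their values were seen (edgeR adjusted p = 0.135 and 0.827).

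Cd47, the don't-eat-me signal, was the most abundant of the 9 genes by CPM. Its level was 603, 611 and 616 CPM in the sensitive against 670, 606 and 684 CPM in the resistant libraries. Resistant replicate 2 lay among the sensitive libraries and the other 2 resistant libraries above them. The change of 0.10 ± 0.06 SE on the log2 scale did not pass (edgeR adjusted p = 0.18, 95% interval 0.984-fold to 1.17-fold). Without resistant replicate 2 it passed (edgeR adjusted p = 0.0347), with a log2 fold change of 0.16. Qpctl, the glutaminyl cyclase gene whose product modifies CD47 for SIRPα binding, rose from 23.7 ± 0.965 to 28.5 ± 1.7 CPM (SD, n = 3 per group; log2 fold change 0.27, edgeR adjusted p = 0.0218). That call was lost without sensitive replicate 1, sensitive replicate 2 or resistant replicate 1 (adjusted p up to 0.076). Calr, the eat-me signal calreticulin, was abundant and did not pass (2116 ± 158 against 1952 ± 156 CPM, SD, n = 3 per group), and the CD47 ligand gene Thbs1 stood at 0.605 and 0.41 CPM and did not pass.

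Sirpa encodes the receptor that reads CD47 on myeloid cells. It stood at 172, 169 and 174 CPM in the sensitive against 125, 116 and 113 CPM in the resistant libraries. The groups did not overlap, and the mean fell 1.45-fold (log2 fold change -0.54 ± 0.06 SE, edgeR adjusted p = 4.29e-05). Cd47 did not pass, so the ratio of the pair follows mainly from the fall of Sirpa and is not a separate result. The ratio of Cd47 to Sirpa CPM was 3.51, 3.62 and 3.54 in sensitive and 5.36, 5.21 and 6.08 in resistant libraries, higher in each of the 3 resistant libraries than in any sensitive one. None of the 50-base stretches of the longest Sirpa transcript occurred in another gene's transcripts.

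**Figure D2:**
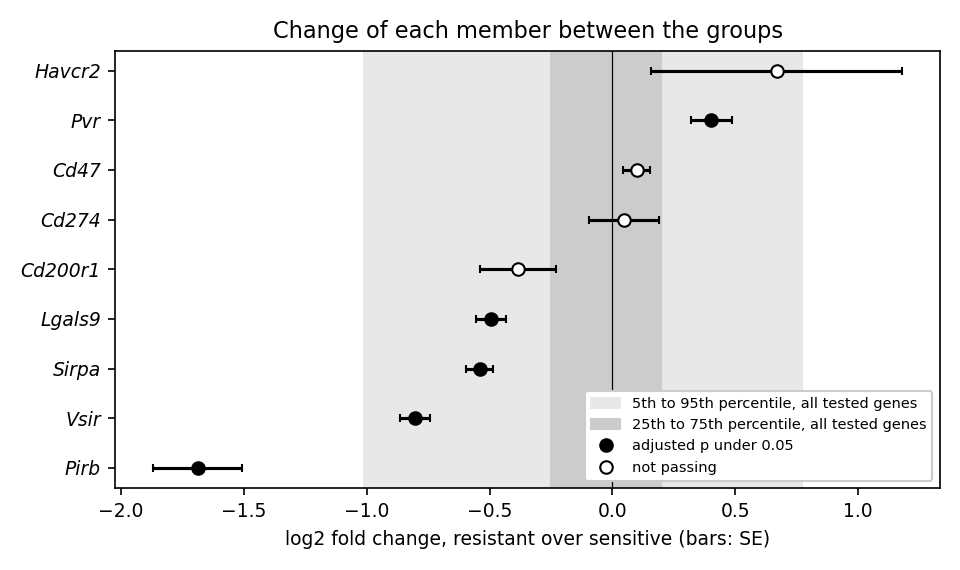
Log2 fold change of each gene, resistant over sensitive, with bars of 1 SE; filled points passed an adjusted p of 0.05 and open points did not. The grey bands hold the central 50% and 90% of all tested genes. Pirb lies below the wider band, Vsir, Sirpa and Lgals9 lie between the bands on the lower side, and Pvr between them on the higher side.

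Pirb encodes PIR-B, the mouse ITIM receptor of the leukocyte immunoglobulin-like family, which binds MHC class I. It had the largest called change of the 9 genes. Its level was 14, 14.7 and 10.4 CPM in the sensitive against 5.04, 3.46 and 3.47 CPM in the resistant libraries. Every resistant library was far below every sensitive one. The mean fell 3.26-fold (log2 fold change -1.69 ± 0.18 SE, edgeR adjusted p = 5.75e-05), and 2.15% of tested genes had a change at or below this. The neighbouring paired receptor genes moved by a like amount: Pira2 (log2 fold change -1.58 ± 0.24 SE), Lilra6 (-1.90 ± 0.21 SE) and the gene model Gm14548 (-1.87 ± 0.26 SE). Pira2, an activating relative outside the rule for named genes, went from 14.9 to 4.91 CPM.

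These genes share sequence, so their values are uncertain one by one. Of the 50-base stretches of the longest Pirb transcript 37.3% occurred in transcripts of other genes, led by Gm14548 and Pira2. The share was 94% for Pira2, 71.2% for Gm14548 and 32.1% for Lilra6, against 0% to 1.68% for the other 8 members. How the authors' counting treated shared reads is not given in the sources used here. Summed over the 4 genes, the level was 30.4 to 43.5 CPM in the sensitive against 8.7 to 14.7 CPM in the resistant libraries. Pirb made up 32.2% to 39.1% of that sum in sensitive and 32.3% to 39.9% in resistant libraries, so its share overlapped between groups while the sum did not.

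**Figure D3:**
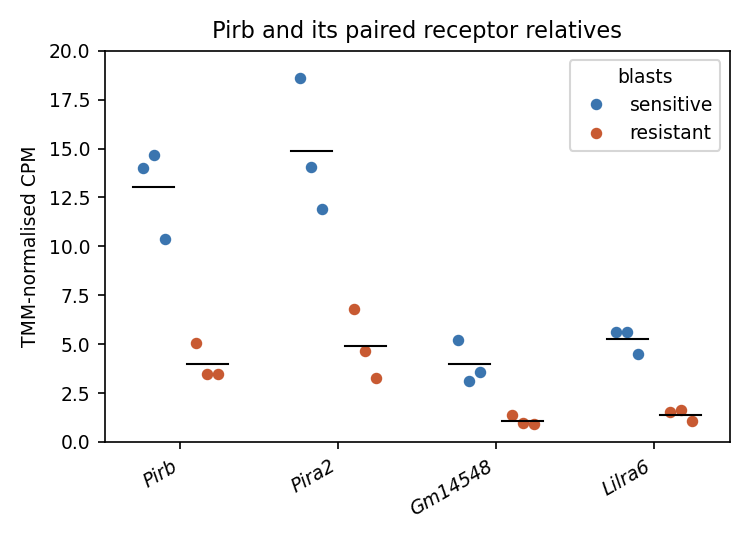
TMM-normalised CPM of Pirb and 3 relatives on a linear axis from 0, with 1 point per library, sensitive in blue and resistant in orange, and a black bar at each mean. In each of the 4 genes all 3 resistant libraries lie below all 3 sensitive ones.

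Around a shared PU.1 motif their promoters are near copies too, and no other part of the promoters was compared. The windows below are shown because the 4 genes moved together; each holds 50 bases on either side of the PU.1 motif, in capitals, from RefSeq build GRCm38.p6, minus strand of chromosome 7, 5′ to 3′. They lie at chr7:3720445-3720552 for Pirb, chr7:3845142-3845249 for Pira2, chr7:3898203-3898310 for Gm14548 and chr7:3915594-3915701 for Lilra6.
Pirb: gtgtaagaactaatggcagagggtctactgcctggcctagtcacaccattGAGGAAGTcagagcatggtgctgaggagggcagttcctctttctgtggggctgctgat
Pira2: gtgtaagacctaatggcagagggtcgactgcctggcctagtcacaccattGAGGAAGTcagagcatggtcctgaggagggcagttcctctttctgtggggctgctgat
Gm14548: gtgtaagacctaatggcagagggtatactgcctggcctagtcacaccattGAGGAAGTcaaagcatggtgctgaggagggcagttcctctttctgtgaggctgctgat
Lilra6: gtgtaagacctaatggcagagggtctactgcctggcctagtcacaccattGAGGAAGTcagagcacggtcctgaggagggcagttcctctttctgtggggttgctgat

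Of these 108 bases Pira2 differed from Pirb at 3, and Gm14548 and Lilra6 at 4 each. Relative to the gene start the motif began at -120 in Pirb, -148 in Pira2, -119 in Gm14548 and -150 in Lilra6. Spi1, the gene of PU.1 (outside the rule for named genes), was at 284 to 329 CPM in the sensitive against 255 to 289 CPM in the resistant libraries and did not pass (log2 fold change -0.14, edgeR adjusted p = 0.124).

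Cd200r1 encodes the receptor of CD200, an inhibitory receptor that signals through adaptor proteins and not through ITIMs. It stood at 7.12, 6.86 and 7.28 CPM in the sensitive against 6.62, 5.1 and 4.49 CPM in the resistant libraries. All resistant libraries were below the sensitive ones, but they spread by 20.3% (CV) against 3% in the sensitive group, with resistant replicate 1 nearest to the sensitive range. The change of -0.39 ± 0.15 SE on the log2 scale did not pass (edgeR adjusted p = 0.0699). Without resistant replicate 1 it passed at -0.57 (edgeR adjusted p = 0.0126). The ligand gene Cd200 had 5 counts over the 6 libraries. Apoe encodes a reported ligand of human LILRB4, while Lilrb4a had no matched identifier and its level is not known here. Apoe rose from 11 ± 2.18 to 19.6 ± 2.02 CPM (SD, n = 3 per group, log2 fold change 0.83 ± 0.14 SE, edgeR adjusted p = 0.00125).

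The phosphatase genes are the next step after the ITIM receptors. Ptpn6 (SHP-1) was at 379 ± 9.12 CPM in the sensitive against 373 ± 18.1 CPM in the resistant blasts, and Ptpn11 (SHP-2) at 140 ± 7.73 and 148 ± 7.59 CPM (SD, n = 3 per group). Neither passed (log2 fold changes -0.02 and 0.08, edgeR adjusted p = 0.752 and 0.336). Inpp5d (SHIP-1), an inositol phosphatase, was lower (log2 fold change -0.18, edgeR adjusted p = 0.0236), a call lost without any of the 3 sensitive replicates or resistant replicate 1 (adjusted p up to 0.0747). Among kinases and adaptors, Csk, which restrains Src family kinases, fell from 174 ± 6.72 to 139 ± 8.34 CPM, and Lyn, a Src family kinase that phosphorylates ITIMs, from 103 ± 2.99 to 83.7 ± 3.57 CPM (SD, n = 3 per group). Fgr, a Src family kinase of mature myeloid cells, fell from 6.1 ± 1.18 to 1.88 ± 0.585 CPM (log2 fold change -1.72), and the adaptor gene Fyb by 0.60 on the log2 scale. Of 24 tested genes of ITIM and ITSM signalling, 4 were higher, 5 lower and 15 did not pass (37.5% called, median -0.09). That share is near the 39.2% called among all tested genes, so nothing is read from these counts. The count higher was 0 to 3 with a library left out, and 0 without sensitive replicate 2 or 3.

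The list of other inhibitory receptors of myeloid cells held more lower than higher members. Of 20 tested, 3 were higher, 11 lower and 6 did not pass, with a median log2 fold change of -0.35. That is 70% called, against 39.2% of all tested genes (18.5% higher and 20.8% lower). The 3 higher, outside the rule for named genes, were Clec4a2, Cd33 and Ly9 (log2 fold changes 0.47, 0.36 and 0.20). Clec12a, a C-type lectin with an ITIM, fell from 623 ± 13.7 to 287 ± 19.2 CPM, and Pecam1, an adhesion molecule with ITIMs, from 154 ± 19.9 to 47.7 ± 4.46 CPM (SD, n = 3 per group; log2 fold changes -1.12 and -1.69). Cd300lb, which is counted among the 11 although it is an activating member of the CD300 family, fell from 63.6 ± 5.38 to 23.5 ± 2.96 CPM. Pilra, an ITIM receptor, fell by 1.38 on the log2 scale, and its activating partners Pilrb1 and Pilrb2 by 1.17 and 1.19. Of 7 tested paralogs and paired activating receptors 5 were lower and 2 did not pass (71.4% called, against 39.2% of all tested genes). Among the 5, 3 are the PIR genes that share sequence, and the others are Pilrb1 and Pilrb2. These others have the same annotated exon length (1957 bases each). Sequence shared among Pilra, Pilrb1 and Pilrb2 was not checked, so their falls may not be separate.

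The remaining checkpoint genes moved both ways. Of 15 tested, 5 were higher, 4 lower and 6 did not pass (60% called, against 39.2% of all tested genes, median 0.18). The count higher was 2 when only library totals set the scale and 2 to 4 with a library left out. Tnfrsf14, the herpesvirus entry mediator that binds BTLA, fell from 7.69 ± 0.44 to 4.37 ± 0.713 CPM, and Cd244a, the SLAM family receptor 2B4, from 32.5 ± 1.01 to 18.2 ± 2.02 CPM (SD, n = 3 per group; log2 fold changes -0.81 and -0.84). Nt5e, which encodes the adenosine-forming enzyme CD73, fell from 7.5 ± 1.73 to 3.76 ± 0.177 CPM. Icosl, the ligand of the T cell costimulator ICOS, rose from 35.9 ± 2.76 to 46.5 ± 2 CPM (log2 fold change 0.37, edgeR adjusted p = 0.00345). Of 11 tested direct partners of the 10 genes, 2 were higher, 4 lower and 5 did not pass (54.5% called, median -0.12). With lists this small nothing is read from the excess over all genes.

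**Figure D4:**
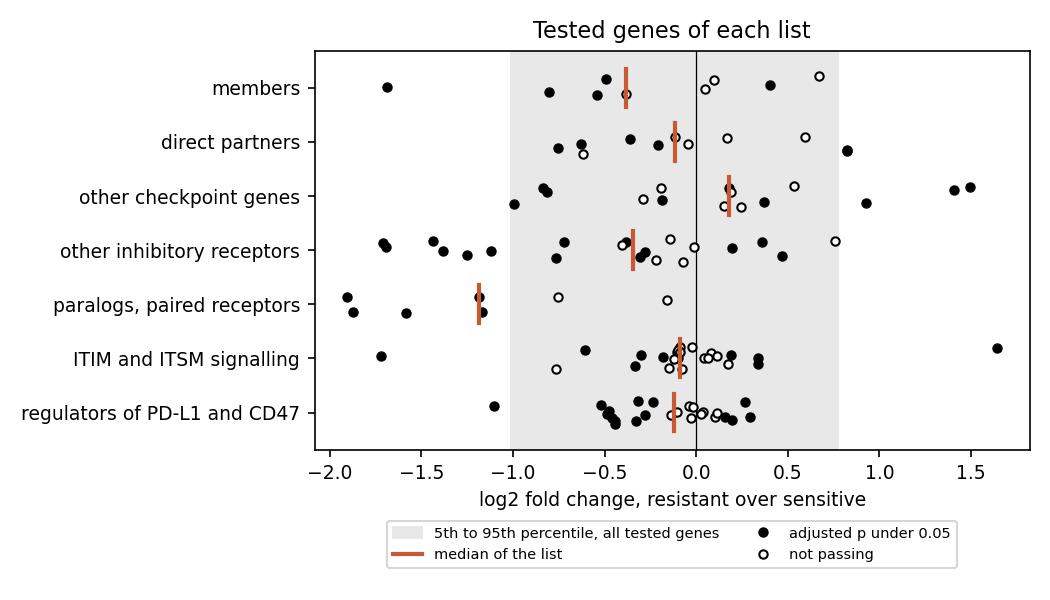
Log2 fold change, resistant over sensitive, of every tested gene in the 9 members and 6 related lists, with filled points past an adjusted p of 0.05, open points not passing, an orange line at each list's median and a grey band over the central 90% of all tested genes. The paired receptors (median -1.19) and the other inhibitory receptors (median -0.35) lie to the left, and the other checkpoint genes spread to both sides.

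Most markers of neutrophil maturation were lower in resistant blasts, while those of monocytes and macrophages moved both ways. The marker counts below stand beside 39.2% of all tested genes called, 18.5% higher and 20.8% lower. Of 10 tested neutrophil maturation markers 9 were lower, and the 11 in the list summed to 214 to 256 CPM in the sensitive against 35.3 to 55.5 CPM in the resistant libraries. Of 9 monocyte markers 6 were lower and 2 higher, with sums of 918 to 991 and 451 to 525 CPM. The 2 higher were Fcgr1 and Cd14 (log2 fold changes 2.84 and 0.84). The 8 tested macrophage markers had 1 higher and 2 lower, with sums of 354 to 382 and 384 to 474 CPM. Those sums came mostly from Vcam1 (means 161 and 240 CPM) and Adgre1 (means 133 and 145 CPM). Of 4 tested dendritic cell markers 2 were lower and 1 higher (sums 105 to 136 and 49.2 to 69.7 CPM), and Cd209a, which marks these cells, had 0 counts. Nearly all of the dendritic cell sums was Flt3 (means 102 and 56.1 CPM) with Itgax (means 13.1 and 1.04 CPM). Of 7 tested red cell markers 6 were lower, with sums of 46.5 to 81.5 and 0.977 to 2.82 CPM. The part of these markers in the changes of Vsir, Sirpa, Pirb and Lgals9 was not tested. T cell markers summed to 6.06 to 8.98 and 3.91 to 6.05 CPM; of the 11, 1 of 3 tested was lower, the other 8 fell below the filter. NK cell markers summed to 50.2 to 67.1 and 70.1 to 96.8 CPM, mostly from Nkg7, with 1 of 3 tested higher and 2 lower; Ncr1 and Klrd1 had 2 counts and 1 count. The 6 B cell markers summed to 38.4 to 41.7 and 38 to 40.7 CPM, nearly all of it Cd79b, and neither tested marker passed. The 10 myeloid blast markers, all expressed, summed to 4152 to 4680 and 3509 to 4152 CPM, with 2 higher (Hoxa9 and Cd34), 4 lower (Kit, Itgam, Elane and Cebpa) and 4 not passing. Of the 2 higher, Hoxa9 rose from 199 ± 16.4 to 269 ± 16.7 CPM (log2 fold change 0.44). Cd34 rose from 619 ± 65.8 to 764 ± 10 CPM (log2 fold change 0.30). Cebpa, a transcription factor gene of granulocyte and monocyte maturation, fell from 95.8 ± 6.1 to 25.3 ± 3.55 CPM (log2 fold change -1.93). Elane, the neutrophil elastase gene, fell from 503 ± 75.1 to 255 ± 50.5 CPM (log2 fold change -0.98). Spreads are SD with n = 3 per group, and these markers lie outside the rule for named genes. Their part in the changes of the members was not tested either.

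**Figure D5:**
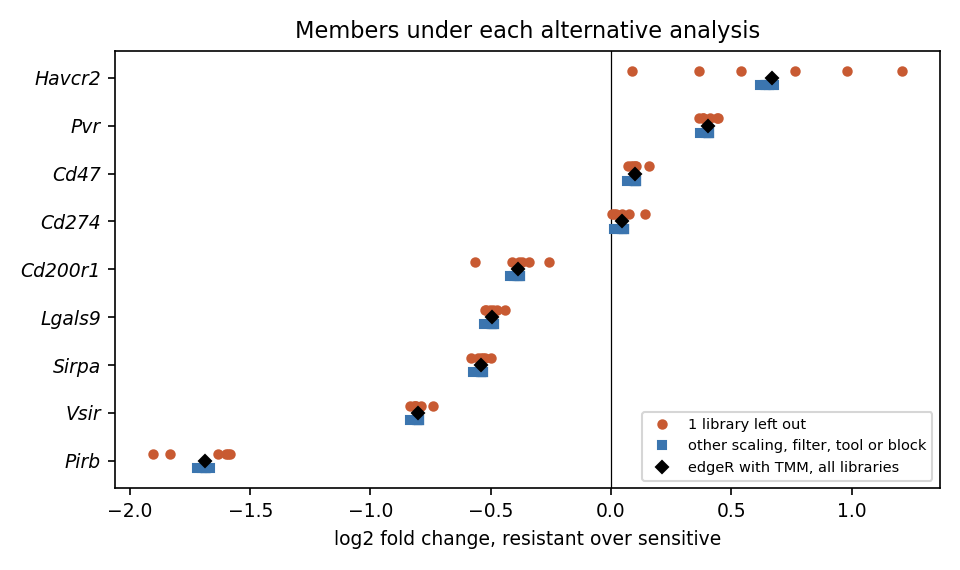
Log2 fold change of each of the 9 genes under the reported analysis (diamonds), with 1 library left out (circles) and under other scalings, filters, tools or the replicate block (squares). The 5 called genes keep their side of 0, while Havcr2 spreads from 0.09 to 1.21.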

How the data were processed

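The authors deposited whole-number counts per Ensembl gene for 6 libraries (total RNA, TruSeq kit, per the labels' protocols). The submitters' processing notes name TopHat2, RSEM and mm9, with no versions or roles; annotation, strand setting and treatment of shared reads were not stated in them, so antisense, overlapping and near-identical genes are uncertain. Library totals were 22206341 to 31856009 counts; 0 columns were left unused. Symbols came from GENCODE M21 (31636 of 35932 identifiers matched), a later build, used for names and lengths only.

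Counts were filtered with filterByExpr, scaled by TMM (factors 0.9784 to 1.016) and tested across all genes in edgeR 4.0.16 (R 4.3.3; glmQLFit, glmQLFTest, group only, BH-adjusted over 13414 genes). The step was tested on simulated data. Chi-square over degrees of freedom between libraries of one group was 3.91 to 13.6, so none was a copy of another. Members and lists were chosen with earlier results of these data known. The 12 promoter motifs were chosen after the values were seen. Named genes were the members, 15 fixed partners and up to 4 genes with the smallest adjusted p from each of 6 lists. The genes from the lists were called, with groups not overlapping and a mean of at least 20 counts. Among the fixed partners, the symbol Lilrb4b was not found in GENCODE M21, so no row could be matched to it. Alternatives used DESeq2 1.42.0, limma 3.58.1, other scalings and filters, a replicate block and each library left out.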

Additional observations from a re-analysis of the deposited data

How the results depend on the processing

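Under 14 alternatives the calls of Vsir, Pirb, Sirpa, Lgals9 and Pvr kept their direction and stayed past the threshold (highest adjusted p 0.000115, 0.000754, 0.0005, 0.0013 and 0.02). Cd274 did not pass under any of the 14, nor Havcr2 under the 13 that tested it; the filter on CPM left Havcr2 out. With each library left out in turn, the number of members higher ranged from 1 to 2 and lower from 4 to 5, genes higher overall from 1641 (without sensitive replicate 2) to 2521, direct partners higher from 1 to 2, other checkpoint genes higher from 2 to 4, ITIM and ITSM signalling genes higher from 0 (without sensitive replicate 2 or 3) to 3, and regulators of PD-L1 and CD47 higher from 1 to 3. Scaling to library totals alone gave 2 other checkpoint genes and 2 regulators higher. The log2 fold changes of Ptpn6 (-0.058 to 0.0012) and Myc (-0.25 to 0.017), neither called with all libraries, turned sign without resistant replicate 3. Myc passed as lower without resistant replicate 2 (adjusted p = 0.0219). The cause was not tested. Same-numbered libraries did not deviate together (r = 0.04, -0.01 and -0.09). With so few libraries per group, this cannot decide whether the numbers mark a shared animal or batch. The replicate block gave 3 other checkpoint genes higher against 5 without it and changed no member's call. It let Spi1 pass (edgeR adjusted p = 0.0455), and gave 2497 genes higher and 2824 lower against 2475 and 2785. Not every library correlated best with its own number. Depth limits Havcr2, Pdcd1lg2, Pdcd1, Cd96, Cd226 and Cd200.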
